A study of Mus musculus with 6 samples.

Results

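Keratin, epithelial adhesion and milk protein genes were followed on 6 arrays of cells sorted as eosinophils from subcutaneous adipose tissue. The group held 10 genes, namely Krt5, Krt14, Krt8, Krt18, Krt19, Cdh1, Epcam, Csn2, Csn3 and Lalba, out of 17097 genes with a single symbol on the platform. They were taken by exact gene symbol and were read by 16 of the 45037 probe sets. The genes were chosen by their symbols with the intensities of these same arrays already known, so their levels and the differences between genotypes in them are given as a description, without a test. Of the mice, 3 were WT and 3 were Klf3-/- (KLF3 KO), the latter lacking the transcriptional repressor KLF3 in every tissue. All were 12-week-old males on the FVB/NJ background, derived from crosses of heterozygous parents, housed at 22 °C on chow and given no treatment. The sort gate asked for CD45, CD11b, F4/80 and Siglec-F with high side scatter, and each array held the RNA of 1 mouse.

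Keratins are the intermediate filament proteins of epithelial cells and work as obligate partners of an acidic type I and a basic type II chain. Krt5 and Krt14 pair in basal and myoepithelial cells, whereas Krt8 and Krt18 pair in simple and luminal epithelium, where Krt19 is also found. Cdh1 (E-cadherin) and Epcam join epithelial cells to one another. Csn2 (beta-casein), Csn3 (kappa-casein) and Lalba (alpha-lactalbumin, the regulatory subunit of lactose synthase) are products of the secretory luminal cells of the mammary gland, a gland that in the mouse grows within subcutaneous fat. None of the 10 is a known marker of eosinophils.

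The sequence immediately upstream of a few of these genes is shown because KLF proteins bind CACCC boxes and these genes differed in the behaviour described next. Krt8 and Krt18 varied together over the arrays, Lalba was high on a single array and Krt5 was level. Each run is the 250 bases before the annotated start (RefSeq, GRCm38.p6), 5′ to 3′ on the strand of the gene, with capitals marking CACCC or its reverse complement GGGTG. The windows are chr15:102004343-102004592 (minus strand) for Krt8, chr15:102027966-102028215 (plus strand) for Krt18, chr15:98482684-98482933 (minus strand) for Lalba and chr15:101712906-101713155 (minus strand) for Krt5.
Krt8: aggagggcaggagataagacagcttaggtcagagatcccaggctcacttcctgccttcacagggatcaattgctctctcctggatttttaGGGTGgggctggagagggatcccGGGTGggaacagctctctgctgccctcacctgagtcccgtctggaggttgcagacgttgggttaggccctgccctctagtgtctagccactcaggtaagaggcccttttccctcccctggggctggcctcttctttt
Krt18: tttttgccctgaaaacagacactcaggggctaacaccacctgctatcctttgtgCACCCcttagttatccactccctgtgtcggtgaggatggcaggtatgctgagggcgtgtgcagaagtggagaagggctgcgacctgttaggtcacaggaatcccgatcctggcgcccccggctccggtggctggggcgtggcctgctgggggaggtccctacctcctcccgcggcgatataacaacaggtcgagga
Lalba: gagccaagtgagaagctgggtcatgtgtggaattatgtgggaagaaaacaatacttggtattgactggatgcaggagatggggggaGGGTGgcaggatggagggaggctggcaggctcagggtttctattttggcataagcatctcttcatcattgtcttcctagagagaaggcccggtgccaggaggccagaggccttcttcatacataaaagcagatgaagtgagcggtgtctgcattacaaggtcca
Krt5: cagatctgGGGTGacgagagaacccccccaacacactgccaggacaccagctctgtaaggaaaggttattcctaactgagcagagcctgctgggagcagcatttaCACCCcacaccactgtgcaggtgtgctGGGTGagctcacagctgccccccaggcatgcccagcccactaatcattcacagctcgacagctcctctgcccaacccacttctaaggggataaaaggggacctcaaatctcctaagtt
Of the 10 genes 7 were matched in the promoter table, and Krt19, Cdh1 and Csn3 were not. The motif, searched on both strands, occurred in 6 of the 7 windows, 3 times in that of level Krt5, 2 times in that of Krt8 and 1 time in those of Krt18, Lalba, Epcam and Krt14. It was not in the window of Csn2. Across all 32851 windows of the same length 52.0% held it. KLF3 binding was not measured on these arrays, and a match is a string of letters only.

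The deposited intensities were linear, with array medians from 30.3 to 58.7, and were therefore also compared as log2 values after quantile normalisation between arrays. A level of 5.10 log2 units, or 34.2 on the linear scale, served as background. It was the 95th percentile of the mean of 44 olfactory receptor probe sets. Klf3 itself was read by 6 probe sets, 5 higher and 1 lower on every Klf3-/- array than on every WT array, and the sources used here do not say whether any of them lies in the disrupted part, so they check nothing. The Y-linked gene Eif2s3y gave 281 to 1074 with its brighter probe set on the 6 arrays, and the 3 probe sets of the female-expressed Xist gave at most 36.5. Of 7 measured eosinophil markers 6 stayed under background on all arrays after normalisation, Siglecf included, and Prg3 did not, whereas the macrophage gene C1qa gave 3120 to 5669. The name eosinophils therefore stands for the sort and not for a check of the cells. In bulk samples, fewer cells of a type and less RNA per cell cannot be told apart.

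The simple keratins stood far apart between arrays. Krt8, the type II chain of simple epithelia, read 23.0, 118 and 9.10 (intensities as deposited) on the WT arrays, in the order of their replicate numbers, which is kept throughout. On the Klf3-/- arrays it read 546, 67.8 and 920. Klf3-/- mice 1 and 3 thus lay above all WT mice, while Klf3-/- mouse 2 lay below WT mouse 2, so the genotypes overlapped. The second Krt8 probe set gave the same order, with 19.5, 133 and 8.13 in WT and 543, 73.2 and 845 in Klf3-/-. Its partner Krt18 read 7.82, 216 and 7.86 on the WT arrays. On the Klf3-/- arrays Krt18 read 886, 160 and 1390, and again mouse 2 fell below WT mouse 2. Krt19, a type I keratin of luminal and ductal cells, gave 84.1, 122 and 37.6 in WT and 671, 191 and 1278 in Klf3-/-, with no overlap between genotypes. Across the 6 arrays Krt8 and Krt18 ran in parallel on the log2 scale (Pearson r = 0.96, a description over 6 arrays of 2 genotypes).

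**Figure D1:**
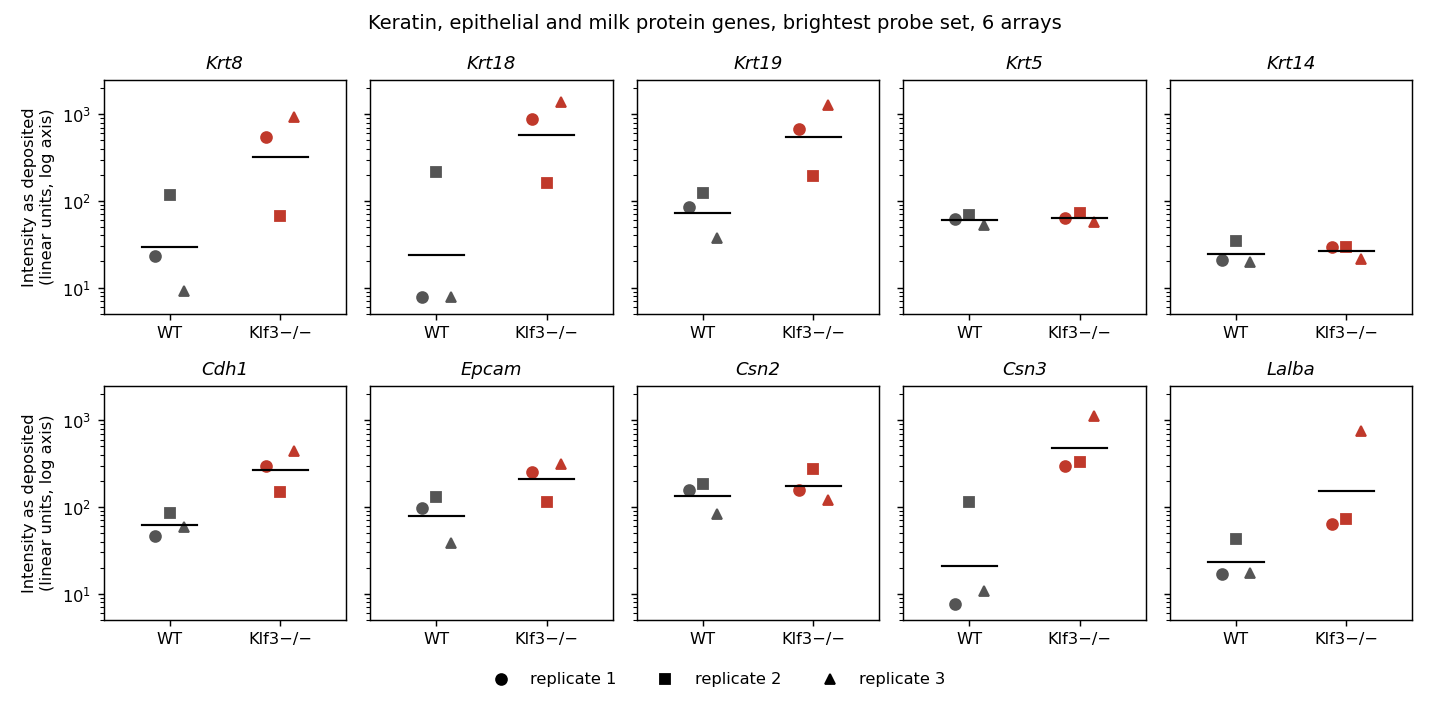
Intensity as deposited (linear units on a log axis) of the brightest probe set of each gene on 6 arrays. Symbols are single arrays shaped by replicate number, WT in grey and Klf3-/- in red, and bars are geometric means of 3. Krt19, Cdh1, Csn3 and Lalba do not overlap between genotypes, Krt8, Krt18 and Epcam overlap through replicate 2, Krt5 and Krt14 vary little, and Csn2 runs from 83.6 to 275 with the genotypes overlapping.

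After normalisation Krt8 averaged 4.90 ± 1.44 log2 units over the WT arrays and 8.28 ± 2.40 over the Klf3-/- arrays (SD, n = 3 each), a difference of 3.38 (standard error 1.62). Krt18 averaged 4.56 ± 2.31 and 9.08 ± 2.11 in the same order, a difference of 4.51 (standard error 1.81). Krt19 averaged 6.28 ± 0.45 and 8.99 ± 1.88, a difference of 2.70 (standard error 1.11). In all 3 genes the SD over the Klf3-/- arrays came to less than the difference, and in Krt18 the WT arrays spread as widely as the Klf3-/- arrays.

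The basal keratins did not share this behaviour. Krt5 gave 61.4, 69.0 and 52.5 on the WT arrays and 64.0, 72.1 and 56.4 on the Klf3-/- arrays, a range of 0.63 log2 units over all 6 after normalisation and above background on each. Krt14, its type I partner, stayed under background on all 6 arrays in both of its probe sets after normalisation. The brighter Krt14 probe set, whose suffix marks possible cross-hybridisation, gave 20.8, 34.4 and 19.9 in WT and 29.4, 29.6 and 21.2 in Klf3-/-. The log2 differences of Krt5 and Krt14 were −0.16 (standard error 0.23) and −0.04 (standard error 0.10) after normalisation, and turned to 0.08 and 0.12 on the values as deposited.

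Cdh1 followed the simple keratins with smaller steps. It gave 46.5, 85.1 and 58.4 in WT and 298, 149 and 443 in Klf3-/-, without overlap, and the difference in log2 levels was 1.91 (standard error 0.79). Epcam gave 97.5, 131 and 38.3 in WT and 255, 114 and 311 in Klf3-/-, where mouse 2 fell between WT mice 1 and 2. Its log2 difference was 1.22 (standard error 0.78). The dimmer Epcam probe set was above background only on the array of Klf3-/- mouse 3, with 52.2, and the 5 other arrays gave 7.76 to 21.4.

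The milk protein genes divided. Csn3, whose product keeps casein micelles in suspension, read 7.52, 114 and 10.6 on the WT arrays. On the Klf3-/- arrays it read 296, 334 and 1133, so that even the lowest of these lay above WT mouse 2. On the log2 scale Csn3 averaged 4.40 ± 1.75 over the WT arrays and 8.79 ± 1.52 over the Klf3-/- arrays (SD, n = 3 each), a difference of 4.38 (standard error 1.34). A second Csn3 probe set stayed under background on every array, with 7.54 to 13.4, so the probe sets of this gene disagreed, and the mean of both gave a log2 difference of 2.35. Lalba gave 16.9, 42.7 and 17.3 in WT and 63.8, 73.7 and 747 in Klf3-/- without overlap, and mouse 3 lay far above the others. As all WT arrays lay under background after normalisation, the Klf3-/- mean of Lalba was at least 4.24-fold higher, measured against the background level, a bound that came to 1.61-fold from Klf3-/- mice 1 and 2 alone. Csn2, a major casein of mouse milk, showed no such pattern. Its brightest probe set gave 158, 186 and 83.6 in WT and 156, 275 and 122 in Klf3-/-, and the other Csn2 probe sets gave 6.63 to 16.1, under background on all arrays.

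Taken by replicate number, the largest differences of Krt8, Krt18, Krt19, Cdh1, Epcam, Csn3 and Lalba were in replicate 3. Over the whole table, deviations from the genotype mean correlated only weakly between same-numbered arrays (r = 0.17, 0.23 and 0.21). The labels do not say that the numbers denote pairs. Each Klf3-/- array was also set against the WT array of its own number, as a description. In replicate 1 the log2 difference of Krt18 was 6.58 and in replicate 3 it was 7.46, whereas in replicate 2 it was −0.50. Krt8 gave 4.25, −0.82 and 6.70 in replicates 1 to 3, and Epcam gave 1.03, −0.30 and 2.94. Csn3 exceeded WT in all 3 replicates, by 5.03, 1.37 and 6.75, as did Krt19 by 2.68, 0.51 and 4.92, Cdh1 by 2.34, 0.65 and 2.75, and Lalba by 1.59, 0.68 and 5.46. Over the 10 genes the median difference was 1.96 in replicate 1, 0.22 in replicate 2 and 3.93 in replicate 3. Klf3-/- mouse 3 held the highest normalised level of 7 of the 10 genes. For this count and those like it below, the share over all probe sets was not counted.

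**Figure D2:**
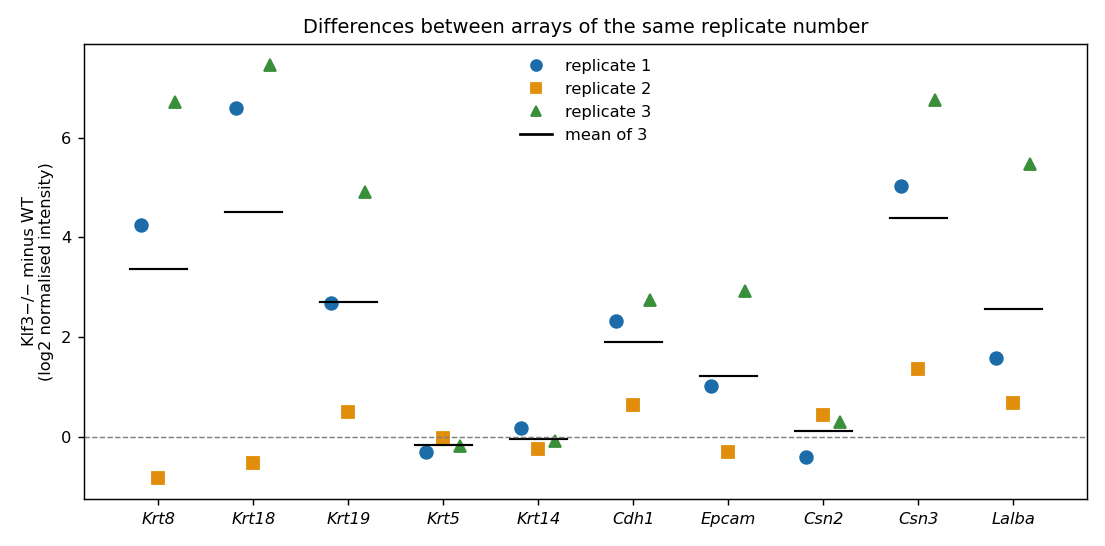
Klf3-/- minus WT in log2 normalised intensity (y axis) for each gene (x axis) and each replicate number, with the mean of 3 as a black bar. Replicate 2 lies near or below 0 for Krt8, Krt18 and Epcam and at 1.37 for Csn3, while replicates 1 and 3 reach 6.58 and 7.46 for Krt18.

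Of the 10 genes 8 had a higher and 2 a lower mean in Klf3-/-, with a median log2 difference of 2.24, where the median over all probe sets was −0.03 (0.13 as deposited). A higher mean was found in 45.3% of all probe sets. Without Klf3-/- mouse 3 the median of the 10 was 1.23, and the values of Lalba and Epcam came to 1.18 and 0.66. Without Klf3-/- mouse 2 that of Epcam was 1.90. In 4 of the 16 probe sets every Klf3-/- array lay above every WT array, which held for 4.49% of all probe sets, and 7 of 16 had an unadjusted p under 0.05 in the higher direction, against 3.10% of all. As the genes were chosen with these arrays known, nothing is read from these counts. In limma with Benjamini-Hochberg adjustment over all probe sets, 0 of the 16 and 0 of 45037 (0%) passed an adjusted p under 0.05.

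Related genes that the choice had not used were then taken from lists of textbook genes, 108 measured genes in all. The lists were written with earlier results of these data known and read on the same arrays, and are not independent of them. Each gene was read by its brightest probe set, while the shares given are over all probe sets. Of these 55.3% averaged above background, so the counts below are a description only. None passed an adjusted p under 0.05 in limma over all probe sets. At an unadjusted p under 0.05, 20 were higher (18.5%, against 3.10% of all probe sets) and 4 were lower (3.70%, against 2.39%). The count of 20 came to 11 without WT replicate 1, 13 without WT replicate 2, 12 without Klf3-/- replicate 1 and 31 without Klf3-/- replicate 2. The count of 4 came to 1 without WT replicate 1, 2 without WT replicate 3 and 1 without Klf3-/- replicate 2. The ordinary analysis of variance per probe set gave 7 higher.

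Regulators of the mammary epithelium had the highest list median, 1.36 log2 units over 10 measured genes. A higher mean in Klf3-/- was found in 9 of them, against 45.3% of all probe sets. The pioneer factor Foxa1 gave 10.5, 16.1 and 12.9 in WT, all under background, and 152, 50.7 and 511 in Klf3-/-. The mean of its 3 Klf3-/- arrays was at least 4.47-fold higher, measured against the background level, or 2.10-fold from mice 1 and 2 alone (adjusted p = 0.817 in limma). The oestrogen receptor Esr1 gave 16.6, 112 and 28.7 in WT and 289, 242 and 159 in Klf3-/-, a log2 difference of 2.39 (standard error 0.65, adjusted p = 0.664). Both genes were without overlap between genotypes. The progesterone receptor gene Pgr gave 9.31, 28.6 and 23.7 in WT and 96.5, 39.2 and 320 in Klf3-/- (adjusted p = 0.879), with Klf3-/- mouse 2 under background. All WT arrays of Pgr lay under background, and the mean of its 3 Klf3-/- arrays was 3.05-fold the background level. As 1 array in that mean was under background, this ratio is not a lower bound. Without Klf3-/- mouse 3 the ratio came to 1.48-fold and the log2 difference of 2.42 to 1.38. The difference was 1.35 with the mean of its probe sets. Gata3, which specifies luminal cells and is also a lymphocyte factor, had a log2 difference of 1.80 (adjusted p = 0.865). These 4 genes were the list's members at an unadjusted p under 0.05, which 3.10% of all probe sets reached in the higher direction. Stat5a, the prolactin-responsive factor that many cell types express, had −0.15 (0.05 as deposited, adjusted p = 0.969). Prlr and Areg were not analysed here.

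Of 12 other milk and mammary secretory genes 6 were above background on at least 1 array and 3 by their mean. The caseins Csn1s1 and Csn1s2b and whey acidic protein (Wap) stayed under background on all 6 arrays, and the casein Csn1s2a was above it only on Klf3-/- mouse 3, with 38.1. Wfdc18, a small secreted protein, gave 15.4, 116 and 23.3 in WT and 507, 134 and 155 in Klf3-/- (log2 difference 2.52, adjusted p = 0.854). Btn1a1 (butyrophilin), a coat protein of milk fat globules, gave 25.6, 23.6 and 69.8 in WT and 150, 107 and 259 in Klf3-/- (1.98, or 1.00 with the mean of its probe sets, adjusted p = 0.884). They were the 2 genes of the list at an unadjusted p under 0.05, against 3.10% of all probe sets in the higher direction. Glycam1, which is made in mammary gland and in the high endothelium of lymph nodes, followed the replicate number instead. It gave 2292, 37.3 and 6.86 in WT and 1647, 123 and 5.83 in Klf3-/-, a log2 difference of 0.23 that turned to −0.57 without WT replicate 2, −1.41 without WT replicate 3 and −1.72 without Klf3-/- replicate 1 (adjusted p = 0.996).

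Of 18 measured junction genes of epithelia 15 had a higher mean in Klf3-/- and 7 an unadjusted p under 0.05, all higher, with a list median of 0.94. Over all probe sets 45.3% had a higher mean and 3.10% such a p in the higher direction. The lower means were those of Cdh3, Col17a1 and Evpl. On Klf3-/- mouse 3 lay the highest level of 12 of the 18. The tight junction claudin Cldn3 gave 15.8, 56.7 and 21.1 in WT and 248, 61.0 and 337 in Klf3-/- (log2 difference 2.57, or 1.91 with the mean of its probe sets, adjusted p = 0.862). Cldn4 gave 7.47, 111 and 15.2 in WT and 128, 61.8 and 242 in Klf3-/- (2.33, adjusted p = 0.901). Here, as in Krt8 and Krt18, WT mouse 2 lay above Klf3-/- mouse 2. The desmosomal plaque protein Dsp gave 9.84, 20.2 and 17.2 in WT, all under background, and 88.7, 43.7 and 240 in Klf3-/-, of which mouse 2 was under background after normalisation. The mean of the 3 Klf3-/- arrays of Dsp was 2.77-fold the background level, or 1.495-fold without Klf3-/- mouse 3. With mouse 2 under background, this ratio is not a lower bound. The log2 difference of Dsp was 2.60 (adjusted p = 0.854 in limma). It came to 1.71 without Klf3-/- mouse 3 and to 1.75 with the mean of its probe sets. Lamb3, a laminin chain of the epithelial basement membrane, gave 23.5, 55.5 and 17.9 in WT and 89.9, 133 and 101 in Klf3-/-, without overlap, a log2 difference of 1.72 (standard error 0.33, adjusted p = 0.663). Dsg2, a desmosomal cadherin, gave 359, 110 and 23.1 in WT and 366, 91.7 and 208 in Klf3-/- (0.83, adjusted p = 0.962), and the genotypes overlapped.

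Of 15 epithelial regulators and membrane proteases 11 had a higher mean in Klf3-/- (45.3% of all probe sets), with a list median of 0.34, and 11 were highest in Klf3-/- mouse 3. Rab25, an epithelial trafficking GTPase, and Esrp1, an epithelial splicing factor, had log2 differences of 1.86 and 1.81 (adjusted p = 0.868 each). They were the 2 at an unadjusted p under 0.05 in the higher direction, against 3.10% of all probe sets. Among the 4 lower means Ehf had the largest fall, with 138, 113 and 90.2 in WT and 158, 48.8 and 38.3 in Klf3-/-. Its log2 difference was −0.99 (adjusted p = 0.910 in limma), with overlap. The basal factor Trp63 (p63) gave 31.9, 60.5 and 29.0 in WT and 30.7, 36.8 and 18.8 in Klf3-/- (−0.64, or −0.19 with the mean of its probe sets, adjusted p = 0.859). All Klf3-/- arrays of Trp63 were under background after normalisation and its WT arrays were at most 5.51 log2 units. Only Trp63 had an unadjusted p under 0.05 in the lower direction, against 2.39% of all probe sets. St14 and Spint2, a membrane protease and an inhibitor of such proteases, had 0.34 and −0.27 (adjusted p = 0.959 and 0.953). The value of St14 came to 0.0016 without Klf3-/- mouse 3 and 0.74 without Klf3-/- mouse 2.

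Among the 36 other keratins on the platform the median log2 difference was −0.05, and 18 were above background on at least 1 array. Krt7, a further keratin of simple epithelia, gave 14.5, 35.6 and 9.35 in WT, all under background after normalisation, and 180, 33.1 and 372 in Klf3-/- (adjusted p = 0.868). Klf3-/- mouse 2 was under background and below WT mouse 2. The mean of the 3 Klf3-/- arrays of Krt7 was 3.74-fold the background level, a ratio that is not a lower bound with mouse 2 under background. Without Klf3-/- mouse 3 the ratio came to 1.87-fold and the log2 difference of 2.86 to 1.87. Krt80 had a different order, with 111 and 146 in WT mice 1 and 2, less in WT mouse 3, and 311, 582 and 221 in Klf3-/- (log2 difference 2.03, adjusted p = 0.736). Krt10, of suprabasal epidermis, had a log2 difference of 0.78 (adjusted p = 0.868). These 3 were the other keratins at an unadjusted p under 0.05, against 3.10% of all probe sets in the higher direction. Krt15 of basal cells stayed under background throughout.

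Genes of epidermal differentiation had a list median of −0.13, and Lor, Flg and Krtdap, which define cornifying skin, stayed under background on all arrays. Dmkn (dermokine) gave 15.5, 43.5 and 11.8 in WT and 432, 558 and 96.8 in Klf3-/-, all of these above and all WT arrays under background. The mean of the 3 Klf3-/- arrays was at least 7.66-fold higher, measured against the background level (adjusted p = 0.518). After normalisation Dmkn was at 8.64, 8.48 and 6.98 log2 units on the Klf3-/- arrays, and so lowest in mouse 3. Krt8, Krt18, Krt19, Cdh1 and Epcam were instead lowest in Klf3-/- mouse 2. Which cells the Dmkn signal came from was not tested. Sbsn (suprabasin) had a log2 difference of 0.91 (adjusted p = 0.736) and Ivl (involucrin) had −0.43 (adjusted p = 0.883). All Klf3-/- arrays of Ivl were under background and its WT arrays were at most 5.38 log2 units. The contractile genes that myoepithelium shares with smooth muscle and pericytes had a list median of −0.74. Myh11, a smooth muscle myosin, gave 927, 1078 and 1203 in WT and 595, 431 and 513 in Klf3-/- (−1.24, or −0.79 with the mean of its probe sets, adjusted p = 0.868), with overlap after normalisation. Acta2, Mylk and Cnn1 had −0.94, −0.62 and −0.74 (adjusted p = 0.910, 0.942 and 0.868), and Cnn1 was under background on all Klf3-/- arrays and at most 5.53 log2 units in WT. Within replicates 1 to 3 the log2 differences were −0.96, −1.31 and −1.46 for Myh11, −0.96, −0.85 and −0.998 for Acta2, −0.73, −0.38 and −0.75 for Mylk and −0.91, −1.28 and −0.03 for Cnn1. The value of Mylk came to −1.05 without WT mouse 2, −0.29 without WT mouse 3 and −0.32 without Klf3-/- mouse 2, and that of Acta2 to −0.60 without Klf3-/- mouse 2. Oxtr, the oxytocin receptor of myoepithelium, stayed under background.

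**Figure D3:**
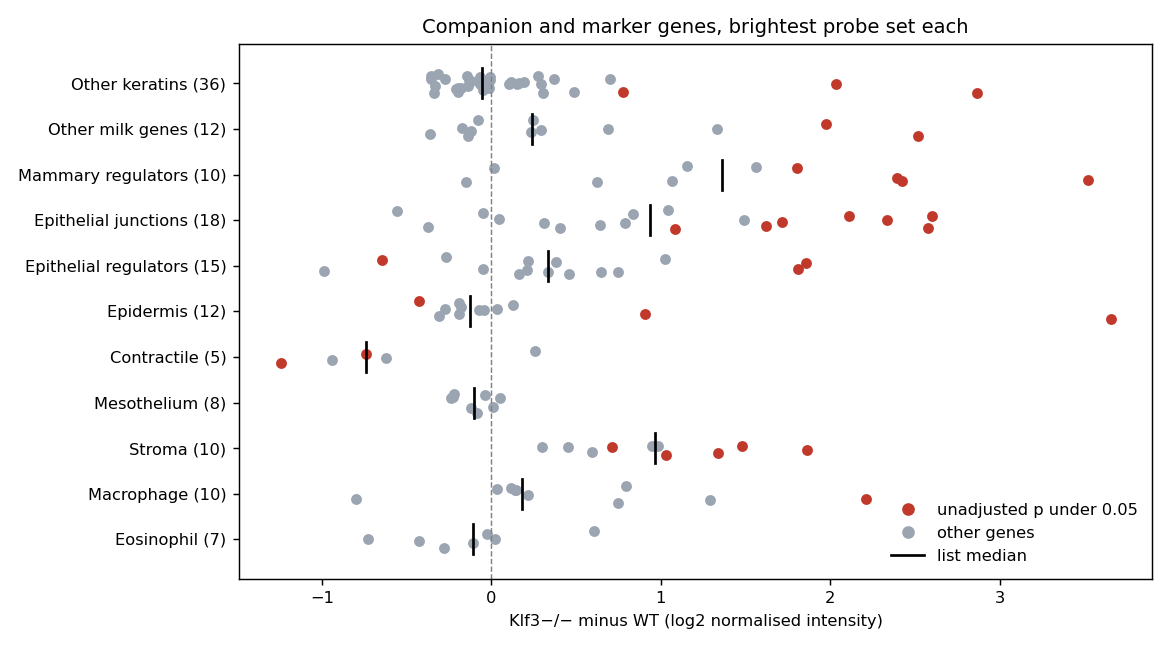
Klf3-/- minus WT in log2 normalised intensity (x axis) for each measured gene of 11 gene lists, with the number of genes in brackets. Points are genes, red where the unadjusted p was under 0.05 in limma, none of which passed after adjustment, and black bars are list medians. The mammary regulators sit at a median of 1.36, the epithelial junction genes at 0.94 and the other keratins at −0.05.

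Markers of other cells were high on various arrays. Mesothelial cells also make simple keratins, and of 8 mesothelial markers 7 stayed under background on all arrays, Msln and Wt1 among them. The summed intensity of all 8 was 135 to 223 in WT and 125 to 220 in Klf3-/-. Sums here and below are of the values as deposited, so they also follow the array medians and rest mostly on the brightest genes. The remaining one, Upk3b, had a log2 difference of −0.23 (adjusted p = 0.953). The summed intensity of 10 stromal markers was 9187 to 18250 in WT and 15287 to 34409 in Klf3-/-. Their mean log2 normalised level was 8.21 to 8.99 in WT and 9.14 to 10.39 in Klf3-/-. All 10 had a higher mean in Klf3-/-, with a median log2 difference of 0.96, 5 at an unadjusted p under 0.05, 4 without overlap and 0 at an adjusted p under 0.05. Over all probe sets 45.3% had a higher mean, 3.10% such an unadjusted p in the higher direction and 4.49% no overlap in that direction. Of the 10 stromal markers 9 were highest in Klf3-/- mouse 2, the Klf3-/- mouse with the lowest Krt8, Krt18, Krt19, Cdh1 and Epcam. The summed intensity of 10 macrophage markers was 8955 to 15056 in WT and 13263 to 22925 in Klf3-/-, and 9 of the 10 were highest in Klf3-/- mouse 3. Their mean log2 normalised level was 9.34 to 10.17 in WT and 9.78 to 11.14 in Klf3-/-. The summed intensity of the 7 eosinophil markers was 120 to 164 in WT and 88.2 to 168 in Klf3-/-. Of 4 adipocyte markers 3 were above background on at least 1 array. Fabp4, a fatty acid carrier of adipocytes that macrophages also make, gave 2986 to 4871 in WT and 3089 to 3592 in Klf3-/- (log2 difference −0.17, adjusted p = 0.981). Retn was above background on all arrays but that of Klf3-/- mouse 3, and Adipoq only on that of WT mouse 3. The part of these cells in the values of the 10 genes was not tested.

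**Figure D4:**
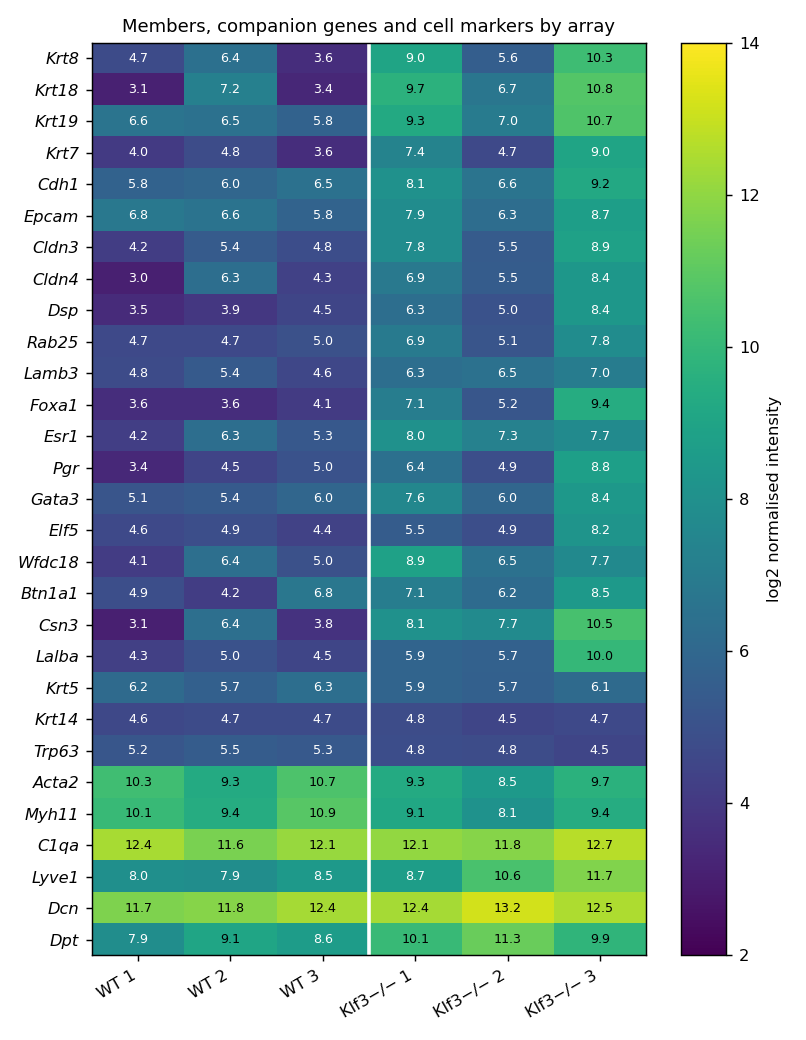
Log2 normalised intensity (colour and printed value) of members, related genes and markers of macrophages (C1qa, Lyve1) and stroma (Dcn, Dpt) on each of the 6 arrays. Values are to be read along a row, as probe sets of different genes differ in brightness. Klf3-/- mice 1 and 3 hold the high values of Krt8, Krt18, Krt19, Krt7 and Cdh1, Klf3-/- mouse 2 those of Dcn and Dpt, and Krt5 and Krt14 are level.

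The genes most alike were sought by the Pearson correlation with the mean profile of the 9 members that passed background on at least 1 array. Of 1438 other genes with a range of at least 2 log2 units, 61 had r over 0.9 over the 6 arrays. The closest were Fxyd3 (r = 0.989), an ion transport regulator, Zfp395 (0.989), Mlph (0.986), a melanosome and vesicle linker, Krt7 (0.986), Clic6 (0.981), Atp6v1b1 (0.979), Cldn3 (0.977), Fam25c (0.976), Fgfr2 (0.976) and Lmx1b (0.971). Fxyd3 gave 14.7, 41.2 and 16.9 in WT and 113, 52.4 and 165 in Klf3-/-. Fgfr2, a fibroblast growth factor receptor, gave 22.1, 58.4 and 23.2 in WT and 184, 162 and 540 in Klf3-/-. For single members the closest genes were Gata3 for Cdh1 (0.997), Tmprss2 for Krt19 (0.997), Zfp395 for Krt8 (0.992), Serinc2 for Lalba (0.990), Sox9 for Epcam (0.983), Smim22 for Krt18 (0.977) and Irx1 for Csn3 (0.975). With 6 arrays many genes reach such values, and they describe likeness over these arrays only.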

How the data were processed

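The authors sorted cells from subcut SVF, amplified RNA with a 3′ IVT Pico kit, hybridised it to Affymetrix HT MG-430PM arrays and processed these in Partek Genomics Suite. The deposited values are linear intensities, 1 per mouse and probe set. The paper names RMA for its expression values, but which of its steps these intensities went through is not stated. Array quantiles differed, so log2 values were quantile-normalised. Genotypes were compared with limma 3.58.1 in R 4.3.3 (lmFit, eBayes), with Benjamini-Hochberg adjustment over 45037 probe sets and a threshold of 0.05. The paper names a two-way ANOVA whose second factor is not stated. Symbols came from the platform annotation (28898 probe sets with 1 symbol, 551 with several, 15588 with none). The brightest probe set stood for a gene. Related genes were named where they had the highest maximum (3 per list) or the smallest p (2 per list), marker genes by highest mean, and genes most alike by correlation, which added Gata3 and Esrp1. Cdh3, Col17a1, Evpl, Ehf, Csn1s2a, Lor, Flg, Krtdap, Krt15, Oxtr, Csn1s1, Csn1s2b, Wap, Msln, Wt1 and the choice of rows in the heat map lie outside this rule and were picked after their values were seen. The members and lists were chosen with earlier results of these data known. Replicate numbers come from the titles. Deviations from the genotype mean correlated between same-numbered arrays (r = 0.17, 0.23 and 0.21), and gave −0.18 to −0.01 between others. Centring on the mean of 3 pushes the latter below 0 once the former are positive, so they add nothing separate. Nothing says whether RNA was prepared together. On simulated data for this comparison, over 45037 probe sets, limma at the same threshold recovered 54.8% of shifts of 2 log2 units and 81.6% of shifts of 3. The shifts were put into probe sets drawn at random, with independent noise. These shares therefore do not apply to genes of wide spread such as Krt18, with a standard error of 1.81. The number of arrays limits the precision.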

Additional observations from a re-analysis of the deposited data

How the results depend on the processing

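In every alternative run 0 probe sets and 0 related genes passed an adjusted p under 0.05 in limma. At an unadjusted p under 0.05, 1398 probe sets were higher and 1077 lower. The replicate block gave 1734 and 1478, and it changed no call. Leaving out 1 array gave no count of probe sets beyond 1.5 times these. The ordinary analysis of variance gave 900 higher, the values as deposited 62 lower, and probe sets above background alone, of which fewer were tested, 618 lower. Of the related genes, 20 were higher and 4 lower. Leaving out 1 array gave 11 to 31 higher and 1 to 4 lower, the ordinary analysis of variance 7 higher, and dropping probe sets whose suffix marks sharing between transcripts or genes, which leaves fewer genes, 11 higher. The values as deposited gave 1 lower, and 2 with the replicate block, an alternative added after seeing the data. The median of the 10 genes, 2.24, was 1.23 to 2.95 with 1 array left out and within the spread between replicates otherwise. Csn3 (4.38) was 2.35 with the mean of its 2 probe sets, which disagree. With 1 array left out, Glycam1 (0.23) gave −1.72 to 2.68 and Dsg2 (0.83) gave −0.018 to 1.86, and so changed sign. The sign of Stat5a turned as deposited (0.049) and that of Spint2 with the mean of its probe sets (0.043). The causes were not tested. The brightest probe sets of Krt8, Epcam and Krt14 are so marked and had no value in that alternative.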

Other observations

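Some genes outside the lists, looked up after the values had been seen, also stood out. Ltf, which encodes lactoferrin, a protein of milk and of neutrophil granules, gave 41.1, 65.6 and 103 in WT mice 1 to 3 and 515, 458 and 1382 in Klf3-/- mice 1 to 3. Chst4, a sulphotransferase of high endothelium, gave 123, 19.0 and 8.39 in WT and 156, 13.1 and 6.68 in Klf3-/-, high in the same arrays as Glycam1. Kit gave 40.1, 421 and 37.5 in WT and 89.5, 398 and 49.2 in Klf3-/-, high in replicate 2 of either genotype.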
